A study of Arabidopsis thaliana with 15 samples.

Results

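The eS6A-HA line was compared with the single mutant rps6b in seedling shoots of Arabidopsis thaliana. The comparison takes 6 of the 15 RNA-seq libraries of the study, chosen by genotype: 3 of eS6A-HA and 3 of rps6b. By their labels, eS6A-HA plants carry mutations in both RPS6A and RPS6B together with the transgene eS6A-HA, and rps6b plants carry a mutation in RPS6B alone. Both groups therefore carry a mutation in RPS6B, and by the labels they differ in the rps6a mutation and in the transgene. WT and eS6A-Δ6SA, the latter a line with both mutations and another eS6A transgene, each with 3 libraries, are given beside them as reference groups. The mutant rps6a, with the remaining 3 libraries, took part in the fit of all 15 libraries and is drawn in the figures that show 5 genotypes. All plants were 12 days old, grew in days of 16 h light and 8 h dark, and were harvested as shoots for total RNA without ribosomal RNA. The labels do not give the mutant alleles, the promoter of the transgene, the number of independent transgenic lines, the hour of harvest or batches. Nothing in them says whether replicates were separate cultures, so p-values measure the spread between these libraries, which may be technical.

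Values are counts of reads per gene divided by a size factor of each library, called normalized counts below, and are listed in the order of replicates 1 to 3. The libraries held 7477503 to 9167608 gene reads in eS6A-HA and 8549434 to 10009723 in rps6b. Of 21777 genes listed, 16335 had a mean of at least 10 over all libraries and were tested. The shoot label was checked against marker lists: 34 of 35 nuclear photosynthesis genes were listed, and their summed level was 417995 to 456936 in rps6b and 459314 to 496923 in eS6A-HA. Of 12 root markers, 9 were listed, and SHR alone passed the filter, the others being at 0 to 6.29 normalized counts in the 6 libraries. The 3 listed flower bud markers summed to 1.8 to 6.27 in rps6b and 3.64 to 6.17 in eS6A-HA. Seed storage genes summed to 115 to 383 in rps6b and 149 to 202 in eS6A-HA, and none of the 3 tested passed the test, although 2 were lower without rps6b replicate 3.

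The protein eS6 belongs to the small subunit of the cytosolic ribosome, and in Arabidopsis it is made from a pair of paralogous genes, RPS6A and RPS6B. It is the classical substrate of S6 kinase, which the growth-promoting kinase TOR activates when nutrients, light and sugar are plentiful, and the phosphorylated serines lie in its C-terminal tail. Plants short of a ribosomal protein are known for slow growth and for pointed or narrow leaves. TOR signalling promotes ribosome production and cell division, and its opposite number, the kinase SnRK1, promotes genes that save carbon under starvation.

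The mutated genes come first. RPS6A (AT4G31700, listed under the symbol RPS6) stood at 1579, 1800.4 and 1792 normalized counts in rps6b and at 1765, 1879 and 1836 in eS6A-HA, so that the groups overlapped. On the log2 scale eS6A-HA minus rps6b was 0.09 with SE 0.11. Similar RPS6A counts were part of the reason for choosing this pair, so the value is a description. Both groups lay above the WT libraries, at 1062, 969 and 824. Reads of the transgene count towards RPS6A where the sequences match.

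RPS6B (AT5G10360, symbol EMB3010) differed between the groups although both carry a mutation in it. It was at 253, 270.5 and 276 normalized counts in rps6b and at 72.0, 95.9 and 92.1 in eS6A-HA, and WT was at 978, 918 and 899. From rps6b to eS6A-HA it fell by 1.62 on the log2 scale (SE 0.10, limma adjusted p 1.66e-14). Whether the lines carry the same rps6b allele is not stated in the labels. Summed over both paralogs, the level was 1990 ± 137 in rps6b and 1913 ± 70.0 in eS6A-HA (SD, n = 3 each), a difference of -77.1, which is a description too.

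**Figure D1:**
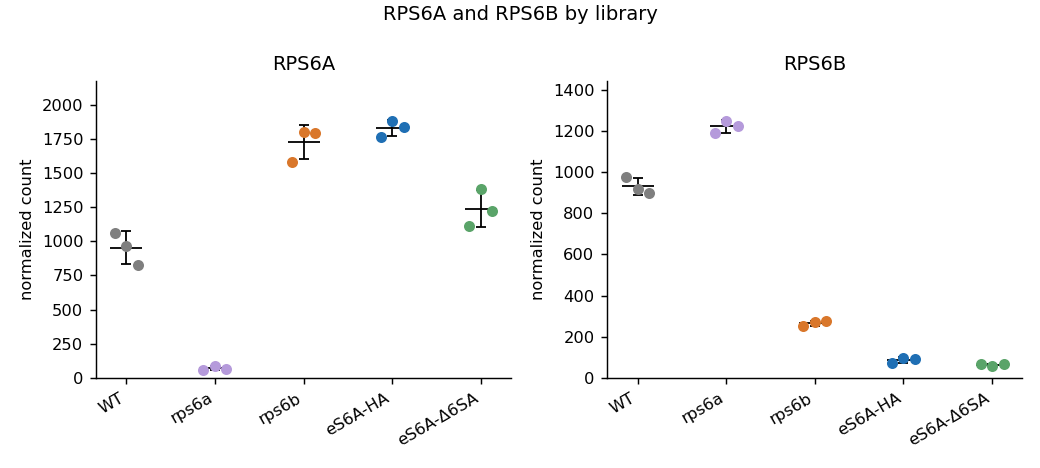
Normalized counts of RPS6A (left) and RPS6B (right) in each library of the 5 genotypes, with the mean and SD of 3 libraries. At RPS6A the rps6b and eS6A-HA libraries overlap, and at RPS6B the eS6A-HA libraries, at 72.0 to 95.9, lie below the rps6b libraries, at 253 to 276.

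A tested neighbour of RPS6B also differed. The F-box gene AT5G10340 had 133, 88.8 and 101 normalized counts in rps6b, 32.9, 25.5 and 28.1 in eS6A-HA and 11.9, 16.3 and 23.8 in WT. In rps6a, too, it lay above WT, at 83.5, 83.0 and 55.2, so a high level was not particular to rps6b. It fell by 1.85 from rps6b to eS6A-HA (SE 0.22, limma adjusted p 8.90e-08), and no library of either group overlapped the other. Of the other 11 tested neighbours of the mutated genes, 3 on each side, 9 did not pass the test, where 22.9% of all tested genes passed it. AT5G10390, a histone gene near RPS6B, fell by 0.76 (limma adjusted p 0.0236) and AT4G31650, a B3 transcription factor gene near RPS6A, fell by 0.58 (limma adjusted p 0.0409). Leaving out replicate 1 or 2 of rps6b, or replicate 2 or 3 of eS6A-HA, ended both calls (limma adjusted p 0.0656 to 0.157), and rps6b replicate 3 that of AT4G31650 (limma adjusted p 0.0799).

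Across the transcriptome, eS6A-HA and rps6b differed at 3748 genes (limma, adjusted p under 0.05), which was 22.9% of those tested. Of these 1923 were higher in eS6A-HA, 11.8% of the genes tested, and 1825 were lower, 11.2%. The median absolute log2 fold change of the called genes was 0.56, and 228 rose and 373 fell by a log2 value of 1 or more, 3.68% of the genes tested. The median of all genes was 0.00. The libraries of the groups did not overlap at 6318 genes, 38.7% of those tested. Fold changes are on the scale of log2(normalized count + 1), which understates the change of low genes.

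Scaling to the spike-in RNAs added to each library gave 2516 calls, 40.8% of them higher in eS6A-HA, where the scaling by the authors gave 51.3%. Spike-in RNAs took 5.67% ± 0.364 of the reads in rps6b and 5.01% ± 0.183 in eS6A-HA (SD, n = 3; exact permutation p 0.1, the smallest the design allows, adjusted over 3 shares 0.1). Testing only genes with a mean of 100 or more left 2523 calls, 61.7% of them higher.

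The same fit gave each group's own values against WT, which share libraries with the comparison above. Between rps6b and WT 3800 genes differed, 23.3% of those tested, and between eS6A-HA and WT 130 genes, 0.796%. Of all tested genes 11.6% were higher and 11.7% lower in rps6b than in WT, and 0.551% higher and 0.245% lower in eS6A-HA than in WT. Those past a log2 value of 1 were 3.92% and 0.227% of the genes tested. The count of 130 was 47 under spike-in scaling and 65, 80 and 69 without eS6A-HA replicate 1, 2 or 3, and 69 without WT replicate 2. Between eS6A-HA and eS6A-Δ6SA 429 genes differed, 2.63% of those tested, 228 higher (1.4%) and 201 lower (1.23%) in eS6A-HA, and 0.508% were past a log2 value of 1. Spike-in scaling lowered the median of all genes in that comparison by 0.21 and gave 923 calls, 40 of them higher. The count of 429 was 279 and 241 without eS6A-HA replicate 1 and 3, and 255 without eS6A-Δ6SA replicate 3.

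Genes for cytosolic ribosomal proteins were lower in eS6A-HA than in rps6b in both subunits. Of 69 tested genes for proteins of the small subunit, RPS6A and RPS6B left out, 57 fell and 0 rose, where 11.2% of all tested genes fell. Their median log2 fold change was -0.53 and the median gene stood at 69.0% of its rps6b mean. For the large subunit 63 of 79 fell and 0 rose, with a median of -0.54 and a median level of 68.9%. Their single values ran from -0.91 to -0.08 in the small subunit and from -1.02 to -0.04 in the large, and the libraries did not overlap at 62 and 68 genes, where they did not at 38.7% of all tested genes. Summed over the tested genes of the small subunit, the level ran from 35562 to 38411 normalized counts in rps6b, from 25114 to 25767 in eS6A-HA and from 24825 to 30419.7 in WT.

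Against WT, 0 genes of either subunit were called in eS6A-HA (limma, over all genes 0.796% called), with a median of -0.09 for both. In rps6b 48 of 69 and 51 of 79 were called higher than in WT, with medians of 0.44 and 0.42, beside 11.6% of all tested genes. Leaving out a library left 50 to 56 calls in the small and 52 to 62 in the large subunit between eS6A-HA and rps6b. In bulk RNA a smaller number of cells of a type and less RNA per cell cannot be told apart, here and in the groups below.

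Single genes followed the same order of groups. AT5G58420, annotated as a gene of the S4 family of the small subunit, had 926, 937 and 807 normalized counts in rps6b and 480.3, 532 and 544 in eS6A-HA. It fell by 0.78 (SE 0.14, limma adjusted p 0.000304). RPS28 (AT5G64140), another small subunit gene, went from 282, 298 and 271 to 146, 148 and 157 and fell by 0.91 (SE 0.11, limma adjusted p 1.26e-07). It overlaps AT5G64150 on the same strand, so the division of its reads is uncertain.

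In the large subunit AT3G07110, annotated as a gene of the L13 family, had 490.1, 534 and 489 normalized counts in rps6b and 266, 283 and 289.9 in eS6A-HA. It fell by 0.85 (SE 0.10, limma adjusted p 7.74e-08). RPL24A (AT2G36620), for which 481, 495 and 524 stood against 283, 274 and 288, fell by 0.83 (SE 0.13, limma adjusted p 2.79e-05). The highest eS6A-HA library lay far below the lowest rps6b library in each of these genes. Less firm was XW6 (AT1G58380), a small subunit gene that fell by 0.78 (limma adjusted p 0.00917). Its call ended without rps6b replicate 2 (limma adjusted p 0.0647) or eS6A-HA replicate 3 (limma adjusted p 0.0676).

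Promoters of plant ribosomal protein genes are known to hold the telo box and site II elements, which proliferating cells use, so the stretch just upstream of the start is shown for 3 of these genes. The sequences are from RefSeq, assembly TAIR10.1, run 5′ to 3′ on the strand of the gene, and end at the base before the annotated start. Capitals mark a site II match (TGGGCC or TGGGCT) read on either strand, and no telo box (AAACCCTA) lay in them. AT5G58420 is shown from chr5:23619339-23619458 (plus strand), AT3G07110 from chr3:2251826-2251945 (plus strand) and RPL24A from chr2:15352014-15352133 (minus strand).
AT5G58420: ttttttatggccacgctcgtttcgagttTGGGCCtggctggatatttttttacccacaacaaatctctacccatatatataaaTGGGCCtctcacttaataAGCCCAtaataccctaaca
AT3G07110: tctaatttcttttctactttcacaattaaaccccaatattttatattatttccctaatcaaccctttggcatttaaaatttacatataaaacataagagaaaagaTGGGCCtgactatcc
RPL24A: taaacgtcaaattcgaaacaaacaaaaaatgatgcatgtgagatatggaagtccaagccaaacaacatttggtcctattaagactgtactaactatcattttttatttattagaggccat
AT5G58420 held 3 matches, AT3G07110 held 1 and RPL24A none, and these genes fell by 0.78, 0.85 and 0.83. Within 250 bases upstream, on either strand, site II was found at 66.7% of the small and 69.6% of the large subunit genes tested and at 24.2% of all tested protein-coding genes. It was at 28.8% of genes called lower and at 16.5% of those called higher. The telo box was at 13% and 26.6% of the genes of the subunits and at 3.65% of all, with 4.98% of the genes called lower and 2.13% of those called higher. A match describes the letters and does not show a site in use.

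Some ribosome biogenesis factors fell. Of 23 tested, 9 fell and 0 rose, with a median of -0.32, where 11.2% of all tested genes fell. Under spike-in scaling or without rps6b replicate 3, 4 fell. NUC-L2 (AT3G18610) codes for nucleolin, a nucleolar protein bound to ribosomal DNA. It had 41.6, 32.6 and 38.6 normalized counts in rps6b, 3.09, 3.64 and 1.12 in eS6A-HA and 2.37, 3.63 and 7.63 in WT, and fell by 3.49 between the former groups (SE 0.34, limma adjusted p 8.00e-10). Its paralog NUC-L1 did not pass the test, at -0.19 (limma adjusted p 0.106). FIB2, for the rRNA-modifying protein fibrillarin, fell by 0.84 (limma adjusted p 0.00167). HDA3 (AT3G44750), a nucleolar histone deacetylase, fell by 0.66 (limma adjusted p 0.00202).

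Genes of the kinases upstream of eS6 gave small values. Of 10 tested genes of TOR and S6 kinase signalling, 3 rose and 1 fell, beside 11.8% and 11.2% of all tested genes. Their median was 0.24. FKBP12, for the protein through which rapamycin can inhibit TOR, was at 211, 205 and 169 normalized counts in rps6b and 127, 104 and 136 in eS6A-HA, and fell by 0.67 (SE 0.14, limma adjusted p 0.000330). PK1 (AT3G08730), the gene for S6 kinase 1, rose by 0.29 (limma adjusted p 0.00577), RAPTOR1, a TOR partner, by 0.34 (limma adjusted p 0.0128) and TOR itself by 0.26 (limma adjusted p 0.0269). None of the 3 rises passed the test under spike-in scaling, and without rps6b replicate 2 or eS6A-HA replicate 1 only 1 did. S6K2 gave 0.16 (limma adjusted p 0.681).

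**Figure D2:**
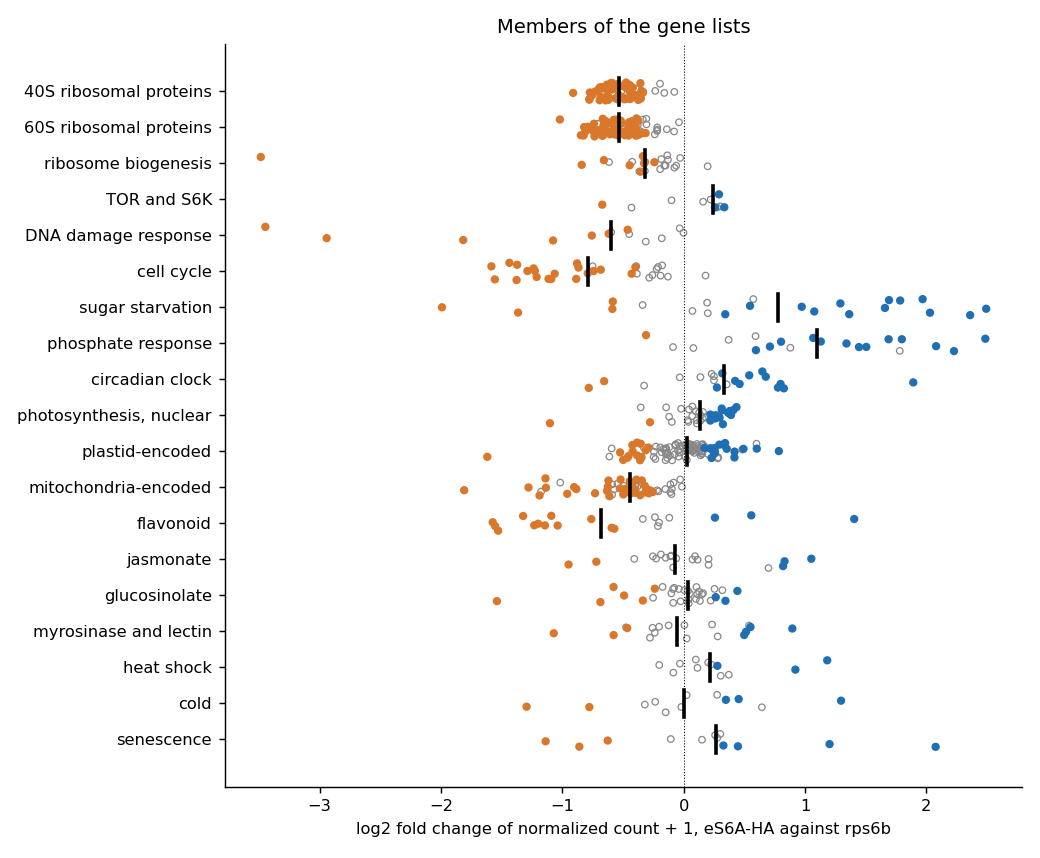
Log2 fold change of each tested member of 19 gene lists, eS6A-HA against rps6b, with 1 row a list. Filled points passed the limma test (blue higher, orange lower in eS6A-HA), open points did not, and black bars are medians, which lie at -0.53 and -0.54 for the ribosomal proteins, -0.79 for the cell cycle, 0.77 for sugar starvation and 1.1 for phosphate.

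Genes of the DNA damage response were lower in eS6A-HA than in rps6b. In plants this response is led by the transcription factor SOG1. Of 13 tested genes 7 fell and 0 rose, with a median of -0.60, where 11.2% of all tested genes fell. NAC044, a SOG1 target that holds cells before mitosis, had 37.6, 44.8 and 41.3 normalized counts in rps6b, 2.06, 2.43 and 4.49 in eS6A-HA and 3.56, 0.908 and 0 in WT. It fell by 3.45 from rps6b to eS6A-HA (SE 0.40, limma adjusted p 5.79e-08). GMI1, a gene for recombination repair of broken DNA, was at 143, 148 and 168 in rps6b and at 16.5, 19.4 and 21.3 in eS6A-HA. It fell by 2.94 (SE 0.16, limma adjusted p 4.15e-16), and WT was at 23.7, 26.3 and 21.0.

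CYCB1;1, a mitotic cyclin that DNA damage is known to induce, went from 44.7, 62.7 and 53.0 to 10.3, 15.8 and 18 and fell by 1.82 (SE 0.25, limma adjusted p 1.02e-06). PARP2 (AT4G02390) and BRCA1, both of DNA repair, fell by 1.08 and 0.76 (limma adjusted p 0.000146 and 0.00185), XRI1 by 0.62 and TSO2, for a subunit of ribonucleotide reductase, by 0.46 (limma adjusted p 0.0218 and 0.0179). SOG1 itself gave -0.18 (limma adjusted p 0.588). GMI1 overlaps a gene on the opposite strand, and whether the counts used strand is not given in the sources used here. In the direct comparison with eS6A-Δ6SA, 4 of the 13 genes were lower in eS6A-HA, beside 1.23% of all genes, among them NAC044 by -2.31 and GMI1 by -1.8 (limma adjusted p 0.000461 and 1.38e-09).

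Cell cycle genes moved the same way. Of 31 tested, 20 fell and 0 rose, with a median of -0.79, where 11.2% of all tested genes fell, and the libraries did not overlap at 24, beside 38.7% of all. The fall of CDKB1;2 is among the 20, a gene that passed the filter on low values only through rps6b. CDC20.1 (AT4G33270), an activator of the complex that ends mitosis, had 118, 106 and 99.7 normalized counts in rps6b and 35.0, 43.7 and 39.3 in eS6A-HA, and fell by 1.44 (SE 0.15, limma adjusted p 8.42e-09). The mitotic cyclins CYCB2;1 and CYCB1;3 fell by 1.59 and 1.56 (limma adjusted p 0.00101 and 0.000141). Summed over the tested genes, the level ran from 3071 to 3233 in rps6b, from 2102 to 2214 in eS6A-HA and from 2168 to 2702 in WT. Genes of DNA replication on the list, MCM3, MCM4, MCM5, MCM7, PCNA1, PCNA2 and RNR1, did not pass the test. Genes named here that the naming rule did not pick, such as these, were chosen for their roles after their values were seen. With a mean of at least 100, a filter that few of these genes pass, 2 were called. Against WT 0 of the 31 were called in eS6A-HA (median -0.12), beside 0.796% of all genes. In rps6b 19 were called higher than in WT (median 0.77), beside 11.6% of all genes. Of the 31, 7 were lower in eS6A-HA than in eS6A-Δ6SA, beside 1.23% of all genes, and 15 under spike-in scaling.

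Genes that respond to sugar starvation went the opposite way. Of 22 tested, 13 rose and 4 fell in eS6A-HA against rps6b, with a median of 0.77, where 11.8% of all tested genes rose. Their summed level ran from 2355 to 2811 normalized counts in rps6b, from 4960.3 to 5369 in eS6A-HA and from 4291 to 5299 in WT. SEN1, a gene induced in the dark, had 32.9, 10.6 and 16.2 in rps6b and 91.5, 120.2 and 107 in eS6A-HA, and rose by 2.49 (SE 0.30, limma adjusted p 1.89e-05). ASN1, for an asparagine synthetase that stores nitrogen when carbon is short, rose from 104, 61.9 and 76.4 to 436, 419.9 and 377, by 2.36 (SE 0.21, limma adjusted p 1.49e-06). TPS11, for a protein of the trehalose phosphate synthase family, went from 106, 84.7 and 65.6 to 349, 376 and 315 and rose by 2.03 (SE 0.14, limma adjusted p 2.01e-11).

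The list holds genes of opposite behaviour. Its 4 members that fell were GPT2, by 1.99, GBF6, by 1.37, TPS5, by 0.59, and APL3, by 0.58 (limma adjusted p 4.59e-06, 2.83e-05, 8.28e-05 and 0.0115). GPT2, a glucose phosphate transporter of plastids, and APL3, a subunit of the first enzyme of starch synthesis, are known to be induced by sugar. Among the members that rose were TPS8, by 1.66, TPS9, by 1.08, and DIN10, by 1.97 (limma adjusted p 7.64e-13, 2.06e-08 and 5.83e-07). KIN10, the catalytic subunit of SnRK1, gave 0.07 (limma adjusted p 0.639). Against WT 0 of the 22 were called in eS6A-HA (median 0.04), beside 0.796% of all tested genes. In rps6b 12 were lower and 4 higher than in WT (median -0.74), beside 11.7% and 11.6% of all tested genes.

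**Figure D3:**
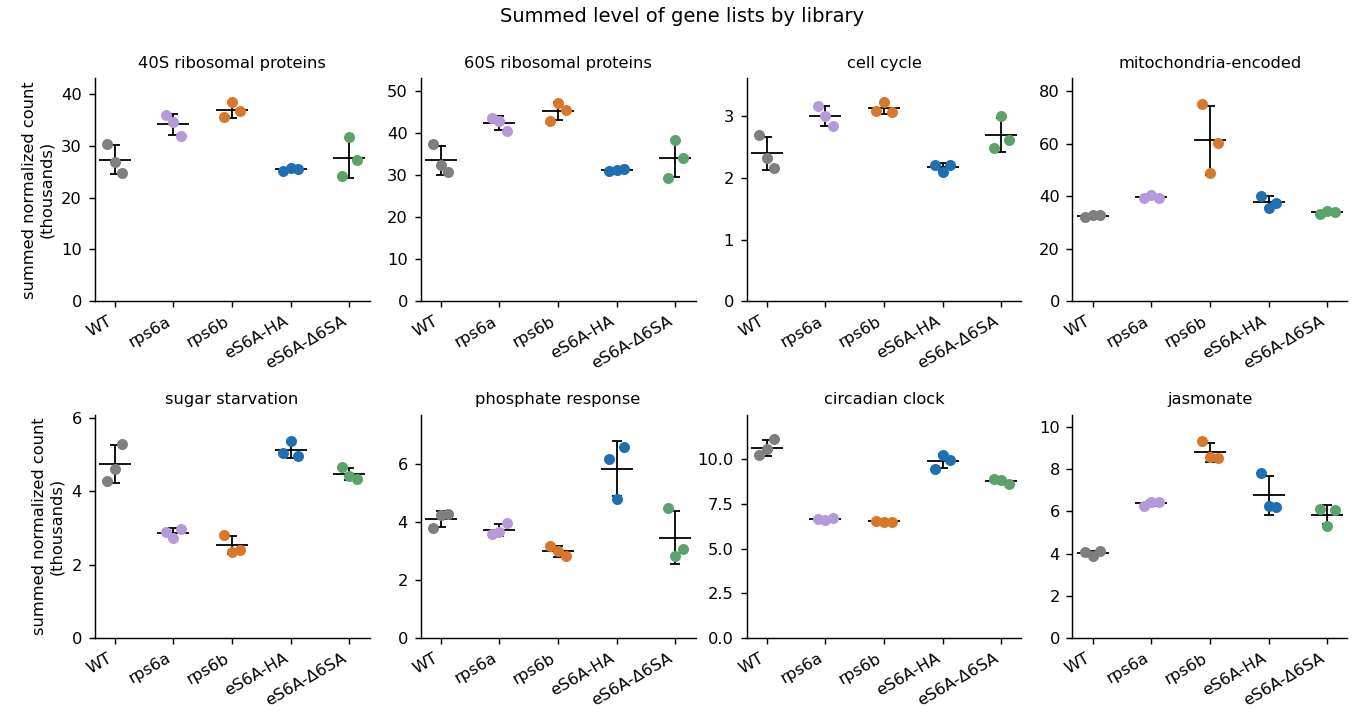
Summed normalized count, in units of 1000, over the tested members of 8 gene lists in each library of the 5 genotypes, with the mean and SD of 3 libraries. In the 40S, 60S and cell cycle panels the 3 eS6A-HA libraries lie below the 3 rps6b libraries, and in the sugar starvation, phosphate and clock panels they are the higher of these groups. A single gene, LOX2, makes up a large part of the jasmonate sum.

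Phosphate starvation genes were higher in eS6A-HA than in rps6b, and this list had the highest median of those examined. Arabidopsis responds to low phosphate through the transcription factor PHR1, by making transporters and phosphatases and by replacing phospholipids with lipids free of phosphorus. Of 20 tested genes 13 rose and 1 fell, with a median of 1.1, where 11.8% of all tested genes rose. The libraries lay apart at 15, all higher in eS6A-HA, beside 38.7% of all genes apart in either direction. SRG3 (AT3G02040), for a phosphodiesterase that breaks down phospholipid head groups, had 34.5, 27.7 and 51.2 normalized counts in rps6b, 235, 150.5 and 262 in eS6A-HA and 97.2, 114 and 124 in WT. It rose by 2.49 from rps6b to eS6A-HA (SE 0.32, limma adjusted p 0.000104). It overlaps AT3G02030 on the opposite strand, so its value can depend on whether counting used strand.

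MGDC (AT2G11810), for a galactolipid synthase, rose from 13.3, 9.78 and 8.98 to 46.3, 34.0 and 69.7, by 2.08 (SE 0.35, limma adjusted p 8.74e-05). SQD2 (AT5G01220), for sulfolipid synthase, rose from 256, 273 and 231 to 919.5, 734 and 1017, by 1.8 (SE 0.19, limma adjusted p 1.64e-05). PS2, for a phosphatase of pyrophosphate, went from 55.7, 66.0 and 42.2 to 283, 150.5 and 392. Its rise by 2.23 (SE 0.56, limma adjusted p 0.0158) was lost without rps6b replicate 3 (limma adjusted p 0.0571) or eS6A-HA replicate 3 (limma adjusted p 0.0622).

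Some regulators of this response rose too. SPX1, a phosphate sensor that holds PHR1 back, went from 105, 109 and 102 to 387, 227 and 454 and rose by 1.69 (SE 0.35, limma adjusted p 0.00485). IPS1, a non-coding RNA that sequesters a microRNA, rose by 1.51 and PHO2, the ubiquitin-conjugating enzyme which that microRNA targets, by 0.60 (limma adjusted p 0.000584 and 0.000287). PHR1 itself gave 0.08 and the exporter PHO1 -0.09 (limma adjusted p 0.657 and 0.664), and the secreted phosphatase PAP10 fell by 0.31 (limma adjusted p 0.0358), a call that ended under spike-in scaling and without any single library but eS6A-HA replicate 1.

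The eS6A-HA libraries were spread in this list. In 12 of the 13 genes that rose, replicate 2 was the lowest of the 3, and the summed level was 6159, 4776 and 6574 normalized counts in replicates 1 to 3, against 2813 to 3185 in rps6b and 3801 to 4280.4 in WT. Leaving out a library left 11 to 14 rises. Between eS6A-HA and WT 0 of the 20 were called in limma, with a median of 0.59. Between eS6A-HA and eS6A-Δ6SA 10 of the 20 were higher in eS6A-HA and 0 lower, beside 1.4% of all genes higher, with a median of 0.98, and 6 were higher under spike-in scaling (median 0.76). SQD2 and MGDC were higher by 1.02 and 1.77 there (limma adjusted p 0.0117 and 0.00430).

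PHR1 binds an element named P1BS (GNATATNC), and the upstream stretches of the 3 genes with the largest rises are shown for it. They are from RefSeq TAIR10.1, 5′ to 3′ on the strand of the gene, with P1BS matches on either strand in capitals. Each was placed to hold the most matches within 250 bases upstream, nearest the start among equals. The last base shown lies 8 bases before the annotated start in SRG3, 98 in PS2 and 1 in MGDC. SRG3 is shown from chr3:350018-350137 (minus strand), PS2 from chr1:27466446-27466565 (minus strand) and MGDC from chr2:4743042-4743161 (plus strand), 120 bases each.
SRG3: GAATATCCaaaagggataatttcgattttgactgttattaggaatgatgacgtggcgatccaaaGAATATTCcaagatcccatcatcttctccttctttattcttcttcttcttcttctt
PS2: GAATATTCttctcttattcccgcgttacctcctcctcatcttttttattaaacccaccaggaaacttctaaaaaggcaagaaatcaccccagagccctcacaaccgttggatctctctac
MGDC: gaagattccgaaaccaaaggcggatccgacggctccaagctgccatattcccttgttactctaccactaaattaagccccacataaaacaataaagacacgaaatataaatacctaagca
SRG3 held 2 matches and PS2 held 1 within 250 bases upstream, and MGDC held none in this window. P1BS was upstream of 5 of the 20 genes tested (25%), of 5.36% of all tested protein-coding genes, of 7.56% of those called higher and of 4.98% of those called lower.

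Several genes of the circadian clock that peak around dawn were higher in eS6A-HA. The clock runs through morning repressors and evening genes that repress each other in turn. Of 20 tested members, 11 rose and 2 fell, with a median of 0.34, beside 11.8% and 11.2% of all tested genes. RVE1, an output gene of the morning that links the clock to auxin, had 176, 156 and 155 normalized counts in rps6b and 571, 659 and 583 in eS6A-HA, beside 625, 592 and 734 in WT. It rose by 1.89 (SE 0.10, limma adjusted p 4.15e-16). The core repressors CCA1 and LHY rose by 0.78 and 0.65 (limma adjusted p 2.04e-09 and 4.16e-08), and CCA1 went from 685, 705 and 677 to 1075, 1263 and 1216. RVE8 and its coactivator AT3G54500, known as LNK2, rose by 0.83 and 0.80 (limma adjusted p 4.68e-07 and 6.62e-10).

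Evening genes were among those that fell. GI, at 131, 136 and 119 in rps6b and 83.3, 74.0 and 86.5 in eS6A-HA, fell by 0.66 (limma adjusted p 0.000126). PCL1, a part of the evening complex, fell by 0.78 (limma adjusted p 0.0348), and without rps6b replicate 1 or 2, or without replicate 3 of eS6A-HA just 1 of these falls was called. TOC1 gave -0.33 (limma adjusted p 0.216). Against WT 0 of the 20 were called in eS6A-HA (median -0.04), beside 0.796% of all tested genes. In rps6b 10 were lower than in WT (median -0.40), beside 11.7% of all tested genes. Whether the groups were harvested at the same hour is not given in the labels, and its part in these values was not tested. Upstream of 7 of the 20 genes (35.0%) lay a G-box (CACGTG) and of 3 (15%) an evening element (AAAATATCT), against 7.66% and 2.42% of all tested protein-coding genes. RVE1 and AT3G54500 overlap genes on the opposite strand.

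Some nuclear photosynthesis genes rose slightly. Of 34 tested, 13 rose and 2 fell, with a median of 0.14, beside 11.8% and 11.2% of all tested genes. Under spike-in scaling 5 rose. LHCB2.1 and LHB1B1, antenna proteins of photosystem II, rose by 0.44 and 0.41 (limma adjusted p 0.000101 and 0.000139). Near-identical antenna genes can share reads, so the division between copies is uncertain. LHCB4.3, a minor antenna gene, went the other way, from 109, 103 and 99.7 normalized counts in rps6b to 50.4, 47.3 and 46.1 in eS6A-HA, and fell by 1.1 (SE 0.17, limma adjusted p 5.37e-06).

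Plastid transcripts took 56.5% ± 0.461 of the gene reads in rps6b and 61.3% ± 0.991 in eS6A-HA (SD, n = 3 each; exact permutation p 0.1, adjusted over 3 shares 0.1, the smallest the design allows). The gene ATCG00020 took 17.7% ± 0.479 in rps6b and 26.1% ± 0.740 in eS6A-HA and rose by 0.78 (SE 0.06, limma adjusted p 5.93e-12). With ATCG00020 left out of the plastid reads and of all gene reads, the other plastid genes took 47.1% ± 0.479 in rps6b and 47.6% ± 0.972 in eS6A-HA, a difference of 0.472 percentage points, and the groups overlapped (exact permutation p 0.6). Their summed normalized counts did not overlap, at 2.99e+06 to 3.08e+06 in rps6b and 3.11e+06 to 3.38e+06 in eS6A-HA (exact permutation p 0.1). Of 103 tested plastid genes 18 rose and 15 fell, with a median of 0.03, beside 11.8% and 11.2% of all tested genes. Under spike-in scaling 7 rose (median -0.01), and 11 rose without eS6A-HA replicate 2. The largest fall, ATCG00930 by 1.62 (limma adjusted p 0.0332), and the rise of ATCG00700 by 0.60 (limma adjusted p 0.0323) were each lost without several single libraries (limma adjusted p 0.0654 to 0.174), rps6b replicate 1 and eS6A-HA replicate 2 being common to both.

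Mitochondrial transcripts were lower in eS6A-HA. They took 0.788% ± 0.169 of the gene reads in rps6b and 0.414% ± 0.0186 in eS6A-HA (SD, n = 3 each; exact permutation p 0.1, adjusted 0.1), and without the 3 genes ATMG01390, ATMG00020 and ATMG01380, left out of both sums, the shares were 0.544% and 0.355%. Of 53 tested genes 30 fell and 0 rose, with a median of -0.44, where 11.2% of all tested genes fell. Leaving out a library left 20 to 30 falls. The fall of ATMG00720 is among the 30, a gene that passed the filter only through rps6b. ATMG00690 had 1069.7, 1160.1 and 1286 normalized counts in rps6b and 554, 488 and 551 in eS6A-HA, and fell by 1.14 (SE 0.09, limma adjusted p 5.72e-12). ATMG00020 spread widely within rps6b, at 23678, 4547 and 9531, against 3293, 2427 and 2979.5 in eS6A-HA. Its fall by 1.81 (limma adjusted p 0.0179) and that of ATMG01390 by 1.28 (limma adjusted p 0.0149) were lost when the 6 libraries alone were fitted (limma adjusted p 0.150 and 0.0994), and leaving out eS6A-HA replicate 2 ended both calls (limma adjusted p 0.0641 and 0.0573). That of ATMG01390 was lost without rps6b replicate 1 or 3 as well (limma adjusted p 0.0572 and 0.0600). ATMG00830 fell by 1.19 (limma adjusted p 0.000295).

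**Figure D4:**
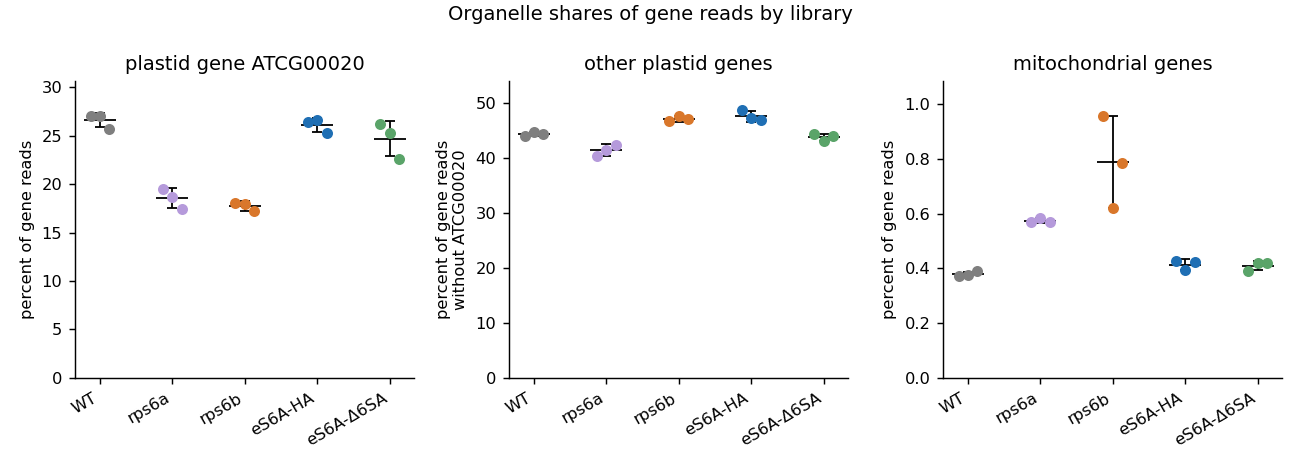
Percent of gene reads taken by the plastid gene ATCG00020 (left), by the other plastid genes once ATCG00020 is left out of all gene reads (middle) and by mitochondrial genes (right) in each library, with the mean and SD of 3 libraries. ATCG00020 is higher in eS6A-HA, at 26.1%, than in rps6b, at 17.7%, the other plastid genes overlap between these groups, at 47.6% and 47.1%, and the mitochondrial genes are lower in eS6A-HA.

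Flavonoid genes were lower in eS6A-HA than in rps6b but not all down to the level of WT. Of 20 tested, 12 fell and 3 rose, with a median of -0.68, beside 11.2% and 11.8% of all tested genes. TT8, a bHLH activator of the late pathway, had 34.5, 32.6 and 43.1 normalized counts in rps6b and 13.4, 7.28 and 15.7 in eS6A-HA, and fell by 1.57 (SE 0.27, limma adjusted p 3.74e-05). GSTF12, for a carrier of anthocyanin to the vacuole, went from 147, 169 and 156 to 65.8, 41.3 and 57.3 and fell by 1.53 (SE 0.17, limma adjusted p 1.70e-08). It stayed above WT, at 29.6, 24.5 and 20, by 1.11 (limma adjusted p 0.000145), and it overlaps a gene on the opposite strand.

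The biosynthetic enzymes UF3GT, LDOX and DFR fell by 1.55, 1.32 and 1.04 (limma adjusted p 0.00159, 5.27e-05 and 0.00669). LDOX and DFR, too, remained above WT in eS6A-HA (limma adjusted p 0.00203 and 0.0252). LDOX was at 193, 110.4 and 153 in eS6A-HA and at 55.7, 70.8 and 58.2 in WT. MYBL2, a repressor of the pathway, did the reverse and rose from 156, 143 and 142 to 415, 387 and 373, by 1.41 (SE 0.10, limma adjusted p 1.48e-13). In the comparison of eS6A-HA with WT, 6 of the 20 genes were higher and 0 lower (median 0.49), beside 0.551% of all genes called higher. In that of rps6b with WT 14 were higher and 2 lower (median 1.03), beside 11.6% and 11.7% of all genes.

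Jasmonate genes gave no common direction: 3 of 20 rose and 2 fell, with a median of -0.07, beside 11.8% and 11.2% of all tested genes. LOX2, for the lipoxygenase that starts jasmonate synthesis in leaves, had 5428, 5016 and 5041 normalized counts in rps6b and 3119, 2467 and 2478 in eS6A-HA. It fell by 0.95 (SE 0.09, limma adjusted p 1.66e-10) and was still 1.02 above WT, at 1476, 1259 and 1239.6 (limma adjusted p 4.72e-10). TIFY7, a repressor of jasmonate signalling known as JAZ9, rose from 245, 212 and 186 to 462, 448 and 420.2, by 1.05 (SE 0.10, limma adjusted p 6.42e-10). VSP1, a storage protein gene that jasmonate induces, rose by 0.83 (limma adjusted p 0.0295), which ended with spike-in scaling (limma adjusted p 0.0571) and without rps6b replicate 2 or 3, or without replicate 1 of eS6A-HA (limma adjusted p 0.0807, 0.142 and 0.253).

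Against WT, 8 of the 20 jasmonate genes were higher in eS6A-HA and 0 lower, with a median of 0.40, beside 0.551% of all tested genes higher. In rps6b 10 were higher and 2 lower than in WT, with a median of 0.52, beside 11.6% and 11.7% of all tested genes. Summed over the tested genes, the level ran from 8539 to 9335 in rps6b, from 6223 to 7828 in eS6A-HA and from 3867 to 4108 in WT. The WT libraries thus lay below both groups. LOX2 alone made up a large part of these sums, at 5016 to 5428 in rps6b and 2467 to 3119 in eS6A-HA. The lower sum in eS6A-HA than in rps6b therefore does not describe the list as a whole.

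Glucosinolates are defence compounds of the cabbage family, split by enzymes called myrosinases. Of 32 tested genes for making and moving them 3 rose and 6 fell, with a median of 0.04, beside 11.8% and 11.2% of all tested genes, and 1 rose under spike-in scaling or without eS6A-HA replicate 1. Of 18 for myrosinases and associated lectins 4 rose and 3 fell, with a median of -0.06. IMS2, for an enzyme that lengthens the side chain, had 111, 113 and 102 normalized counts in rps6b and 43.2, 38.8 and 29.2 in eS6A-HA. It fell by 1.54 (SE 0.22, limma adjusted p 3.13e-05) and lay below WT too, at 66.4, 81.7 and 91.5, by -1.09 (limma adjusted p 0.0194). The difference from WT was not called under spike-in scaling or without WT replicate 2 or 3, or without replicate 2 or 3 of eS6A-HA (limma adjusted p 0.0720 to 0.139). The transporter GTR2 and the regulator MYB34 fell by 0.69 and 0.58 (limma adjusted p 7.84e-06 and 0.000389).

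ESM1, which shifts the breakdown towards isothiocyanates, fell from 3442, 3653 and 3435 to 1647, 1638 and 1725, by 1.07 (SE 0.09, limma adjusted p 1.27e-11). PYK10, a glucosidase of endoplasmic reticulum bodies, fell by 0.58 (limma adjusted p 0.00471). The myrosinase genes TGG1 and TGG2 rose by 0.50 and 0.55 (limma adjusted p 1.05e-06 and 0.000157). The lectin gene JAL23 rose by 0.90 (limma adjusted p 0.0268), a call lost without rps6b replicate 3 or eS6A-HA replicate 1 (limma adjusted p 0.164 and 0.254).

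Stress and ageing genes moved singly. HSP70 (AT3G12580), a cytosolic chaperone, rose from 126, 137 and 168 normalized counts to 299, 359 and 320.2, by 1.18 (SE 0.12, limma adjusted p 5.22e-09). WT was higher still, at 391, 453 and 536. In all 3 of 12 tested heat shock genes rose and 0 fell, where 11.8% of all tested genes rose. Under spike-in scaling 1 rose, and HSC70-1 and DREB2A, which had risen by 0.28 and 0.92, were lost (limma adjusted p 0.122 and 0.0839). DREB2A was also lost with no filter on low values (limma adjusted p 0.0513), in DESeq2 (adjusted p 0.0966) and without any single library but rps6b replicate 2 (limma adjusted p 0.0762 to 0.130). KIN2, a cold-induced gene, rose from 152, 108 and 104 to 338, 283 and 271, by 1.3 (SE 0.14, limma adjusted p 4.12e-08). The 12 tested cold genes together gave a median of 0.00 with 3 rises and 2 falls, beside 11.8% and 11.2% of all tested genes. Of the rises 1 was called under spike-in scaling, without rps6b replicate 2 or without replicate 1 of eS6A-HA. Both falls, of GolS3 and COR413IM1, were lost without rps6b replicate 1 or without replicate 1 or 2 of eS6A-HA (limma adjusted p 0.0688 to 0.169).

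NAP, a transcription factor of leaf senescence, was at 53.3, 52.1 and 38.6 in rps6b, at 197, 208 and 207 in eS6A-HA and at 235, 287 and 287 in WT, and rose by 2.08 (SE 0.20, limma adjusted p 2.38e-07). Of 12 tested senescence genes 4 rose and 3 fell, beside 11.8% and 11.2% of all tested genes. Leaving out single libraries left 2 to 4 rises and 1 to 2 falls. NAC6, which rose by 1.2 (limma adjusted p 0.0322), was lost without 4 of the 6 libraries singly, and WRKY53, which fell by 1.14 (limma adjusted p 0.0445), without any 1 of them. WRKY53 and GolS3 passed the filter on low values only through rps6b. AGL20, the flowering activator SOC1, rose by 0.86 (limma adjusted p 1.85e-07), the one call among 8 tested flowering genes, beside 11.8% of all tested genes higher. With no filter on low values 3 flowering genes were called higher, and with a mean of at least 100 there were 2. Of 16 leaf polarity and meristem genes KNAT1 and KNAT6 fell, by 0.71 and 0.74 (limma adjusted p 0.00129 and 0.0191), beside 11.2% of all tested genes. KNAT6 was lost without rps6b replicate 1 or 2, or without replicate 3 of eS6A-HA (limma adjusted p 0.0593 to 0.112). Among 9 tested genes of mitochondrial stress NDA1 alone passed, with a rise by 0.50 (limma adjusted p 2.26e-05), where 11.8% of all tested genes rose.

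The largest rises and falls were taken from genes whose higher group averaged 50 normalized counts or more and whose libraries lay apart. Beside SEN1, SRG3, ASN1, PS2 and NAP, the 12 largest rises held 7 genes of no list. AT2G05540, for a glycine-rich protein, had 43.1, 43.2 and 41.3 normalized counts in rps6b and 278, 356 and 306 in eS6A-HA, the largest rise by this rule, 2.84 (SE 0.16, limma adjusted p 2.05e-13). AT4G27450 and AT3G15450, both annotated as aluminium-induced proteins with YGL and LRDR motifs, rose by 2.61 and 2.29 (limma adjusted p 4.88e-16 and 1.57e-12). BT5, for a protein with BTB and TAZ domains, rose by 2.56, the phloem protein gene PP2-A13 by 2.23, the PQ-loop gene AT4G36850 by 2.2 and HSPRO2 by 2.18 (limma adjusted p 1.13e-05, 2.66e-12, 4.15e-16 and 4.70e-07). In each of these 7 the eS6A-HA and WT values were not called different (limma adjusted p 0.169 to 0.954). AT4G27450, AT3G15450, BT5, PP2-A13 and ASN1 overlap genes on the opposite strand.

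**Figure D5:**
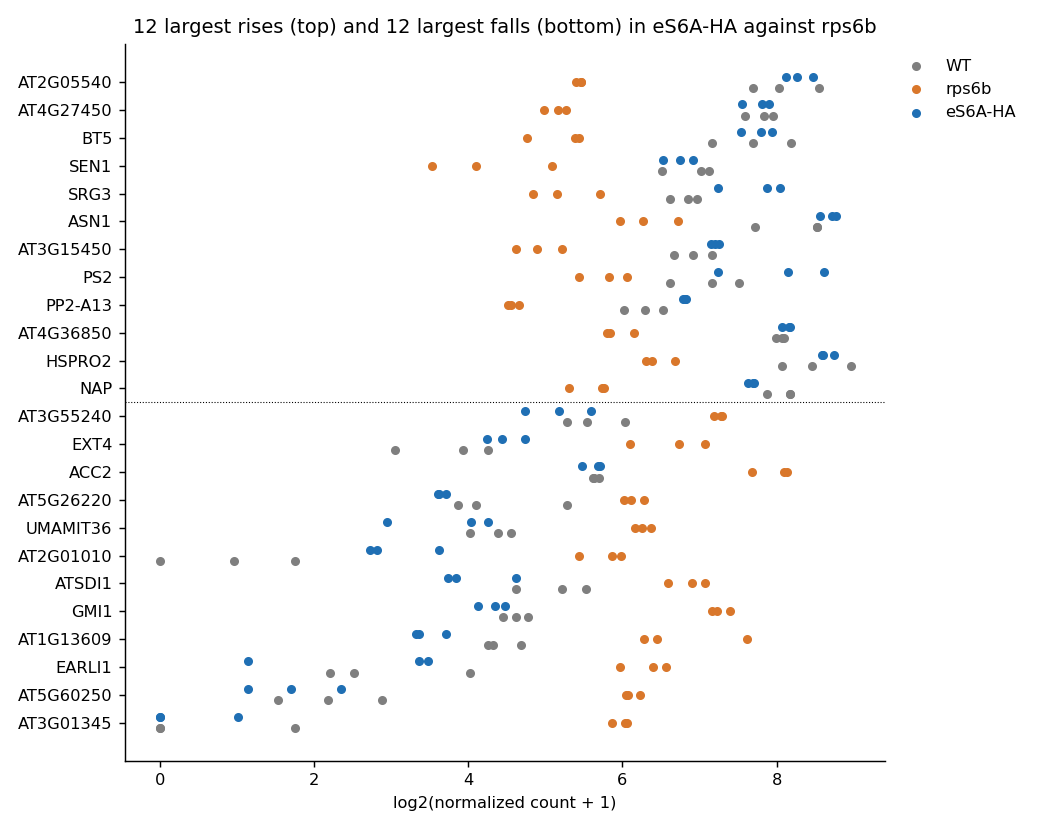
Levels, as log2(normalized count + 1), of the 12 genes with the largest rises (top) and the 12 with the largest falls (bottom) in eS6A-HA against rps6b, with 1 point a library for WT, rps6b and eS6A-HA. For each gene the rps6b points lie apart from the eS6A-HA points, as from 41.3 to 43.2 against 278 to 356 normalized counts for AT2G05540.

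Among the falls AT3G01345, for an uncharacterized protein, stood at 57.2, 66.0 and 64.7 normalized counts in rps6b and at 1.03, 0 and 0 in eS6A-HA, which was 226 reads against 1. The level in rps6b was 168 times that in eS6A-HA, with a 95% counting interval of 29.8 to 6661 that covers counting error only (limma adjusted p 3.02e-13). In WT it was at 2.37, 0 and 0, and in eS6A-Δ6SA at 23.2, 28.6 and 26.8. AT5G60250, a RING finger gene, went from 65.1, 74.1 and 66.5 to 4.11, 1.21 and 2.25 and fell by 4.38 (SE 0.32, limma adjusted p 7.64e-13). EARLI1, for a lipid transfer protein, and AT1G13609, for a defensin-like protein, fell by 3.65 and 3.32 (limma adjusted p 0.000978 and 6.90e-10). AT5G60250 and EARLI1 overlap genes on the opposite strand.

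ACC2, for the acetyl-CoA carboxylase of plastids made as a single chain, had 281, 204 and 272 in rps6b, 51.4, 43.7 and 50.6 in eS6A-HA and 51.0, 48.1 and 48.6 in WT. It fell by 2.34 (SE 0.14, limma adjusted p 7.64e-15), and was lower in eS6A-HA than in eS6A-Δ6SA by -1.15 (limma adjusted p 1.74e-06). ATSDI1, named for its response to sulphur deficiency, fell by 2.79, the ChaC-like gene AT5G26220 by 2.49 and the transporter gene UMAMIT36 by 2.51 (limma adjusted p 1.82e-09, 2.10e-08 and 3.47e-09). EXT4, for the cell wall protein extensin, fell by 2.16 and AT3G55240, of unknown function, by 2.08 (limma adjusted p 1.33e-07 and 1.14e-10).

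The 18S ribosomal RNA gene AT2G01010 had 57.2, 42.4 and 62.0 in rps6b, 11.3, 6.07 and 5.62 in eS6A-HA and 2.37, 0 and 0.954 in WT. It passed the filter on low values only through rps6b, with a mean of 5.9 over the other 12 libraries, so its values are a description. Its level is uncertain, since such RNA was removed before sequencing and the many near-identical copies divide reads among them. Of the genes of this rule, those also lower in eS6A-HA than in eS6A-Δ6SA included AT3G01345, AT5G60250 and UMAMIT36 (limma adjusted p 1.68e-09, 1.24e-06 and 0.0280), and EXT4 and AT5G26220 were not called there (limma adjusted p 0.954 and 0.987).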

How the data were processed

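Total RNA of 12-day-old shoots was depleted of ribosomal RNA, given ERCC spike-in RNAs and sequenced in paired reads of 75 bases, per the labels' protocols. Per the submitters' processing notes, the tools included STAR 2.7.6a, featureCounts 2.0.0 and DESeq2 1.26.0 with the genome build TAIR10. The authors deposited a table of normalized counts, a signal per gene and library, which is a read count divided by a size factor. Whether counting used strand is not given in the sources used here. Dividing each value by the step of its library gave whole reads, within 0.01 reads, for 100% of the values examined, so the reads per library and count tests could be computed.

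The members and gene lists were chosen with earlier results of these data known. The 77 spike-in features were left out, and 16335 of 21777 genes with a mean of at least 10 over the 15 libraries were tested. The other 5442 genes were not tested. The values were taken as log2(value + 1) and fitted with limma 3.58.1 (R 4.3.3, trended and robust variance), with 1 mean per genotype in 1 fit of all 15 libraries. A gene was called at a Benjamini-Hochberg adjusted p under 0.05. Leaving out single libraries, other pseudocounts and filters, TMM and spike-in scaling, a fit of the compared groups alone, a replicate block, edgeR 4.0.16 and DESeq2 1.42.0 were the alternatives. The limma fit was also run on simulated counts with the same spread set for all genes and groups, so that run does not cover groups of unequal spread.

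Genes were named by a rule: the 12 largest rises and falls among genes whose higher group averaged 50 or more and whose libraries lay apart, the 3 largest called members of each list, and the 3 tested neighbours on each side of RPS6A and RPS6B. Further genes were named for their roles after their values were seen. Gene names came from RefSeq (TAIR10.1), which matched 21565 of 21777 identifiers, and genes of the organelles are given by identifier. Ribosomal proteins were found by product text, with organellar ones left out by name, so a few of the latter may remain. Replicates were more unlike each other than counting error alone makes them (chi-square per degree of freedom 1.71 to 2.29 in eS6A-HA and 3.01 to 5.32 in rps6b), so each library was counted as 1 replicate.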

Additional observations from a re-analysis of the deposited data

How the results depend on the processing

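Between eS6A-HA and rps6b the count of 3748 genes ranged from 2516 to 4097 over the alternatives, with 3814 in edgeR, 2963 in DESeq2 and 2865 to 3264 when single libraries were left out. Of 83 named genes called, 64 were called under every one of the 16 alternatives that tested them, but only 40 were tested in all 16, of which 33 were called in each, since 43 had a mean under 100. No named gene called changed direction. For eS6A-HA against WT, spike-in scaling gave 47 genes instead of 130, and leaving out a library gave 65 to 129. For eS6A-HA against eS6A-Δ6SA, 429 genes became 282 with a mean of at least 100 and 923 under spike-in scaling, with 241 to 570 when a library was left out. The cause was not tested. The difference in the plastid share, 4.78 percentage points, was 0.472 with ATCG00020 left out of plastid and gene reads. Left out of the plastid reads alone, a choice made after seeing the data, it was -3.61, because the gene then stays in the total. With a mean of at least 100, which tests fewer genes, calls in the DNA damage list went from 7 to 1 and in the flavonoid list from 12 to 4.

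Same-numbered libraries of the groups share only a number: the correlations of their deviations were 0.0495, 0.0347 and 0.0155. With the number as a replicate block the counts were 3843 genes against rps6b, 135 against WT and 461 against eS6A-Δ6SA, and 3855 for rps6b against WT. For eS6A-HA against rps6b every library correlated best with its own number, a hint from the data and not from the design, which did not hold against WT (0.039 for eS6A-HA replicate 1 with WT replicate 3) or eS6A-Δ6SA (0.0278 for replicates 3 and 2). Genes with few reads are limited by depth, and 3 libraries a group limit every exact test to a p of 0.1.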

Other observations

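Genes outside the protein-coding class were counted by their RefSeq class for eS6A-HA against rps6b, beside 11.8% of all tested genes called higher and 11.2% called lower. Of 13 tested genes for small nuclear RNAs 7 were lower in eS6A-HA and 0 higher. Of 26 tested genes for small nucleolar RNAs 6 were lower and 0 higher. Long non-coding RNAs gave 6 higher and 9 lower of 75, and 91 pseudogenes gave 5 higher and 14 lower. The class of other non-coding RNAs gave 7 higher and 8 lower of 59, and 62 transcribed pseudogenes gave 9 higher and 8 lower. The 156 tested identifiers with no match in the reference have no class there. They are the 103 plastid and 53 mitochondrial genes already given, with 18 higher and 45 lower.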
